A study of Drosophila melanogaster with 30 samples.

Results

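The actins and muscle contractile proteins studied here are encoded by 10 genes of Drosophila melanogaster, chosen by name. Earlier results of these data were known when the genes were chosen. The 6 actin genes are Act5C, Act42A, Act57B, Act79B, Act87E and Act88F. The others are the muscle myosin heavy chain Mhc, the myosin light chains Mlc1 and Mlc2, and up (upheld), which encodes troponin T. All 10 genes were found by FlyBase symbol among the 17704 genes present in the files of both datasets, and all passed the filter on low counts in each dataset. RNA was measured by sequencing of whole adult heads taken 22 to 31 h after eclosion, in 6 groups of 5 libraries. In the glia dataset, flies of the genotype repo-Gal4/UAS-bchs::HA, in which glia overexpress Bchs, were set against a driver control (repo-Gal4/+, the repo-Gal4 control) and a transgene control (UAS-bchs::HA/+, the UAS control). In the neuron dataset, flies of the genotype nSyb-Gal4/UAS-bchs::HA, in which neurons do so, were set against nSyb-Gal4/+ flies (the nSyb-Gal4 control) and a UAS-bchs::HA/+ group of their own. Bchs (Blue cheese) is the fly counterpart of WDFY3, and the driver decides the cell type in which the transgene is on: repo-Gal4 acts in glia and nSyb-Gal4 in neurons, so neither driver is aimed at muscle. The question of the study was which pathways change when Bchs is overexpressed, each time against both the Gal4 and the UAS control.

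Actin is a globular protein that polymerises into filaments. Cytoplasmic actins form the cortex, the cytoskeleton of neurites and the microvilli of nearly every cell, whereas muscle actins form the thin filaments of the sarcomere. In muscle, the heads of the myosin heavy chain, each carrying an essential and a regulatory light chain, pull on these thin filaments, and the troponin and tropomyosin complex lying on actin makes this depend on calcium. In a fly head, muscle is found mainly in and around the proboscis, and transcripts of cytoplasmic actins come from all tissues together. Which cells of the whole heads supplied the transcripts of the sarcomere genes was not tested.

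In heads with neuronal Bchs overexpression, the transcripts of all 3 myosin chains were lower than in both controls. Mhc was 26.7% lower than in nSyb-Gal4/+ heads and 24.1% lower than in the UAS control, Mlc2 was 22.6% and 21.8% lower, and Mlc1 was 21.4% and 12.8% lower, each with an edgeR adjusted p under 0.05, which 10.2% of all tested genes reached against both controls with the same sign. Mlc1 no longer passed against both in 10 of the 15 cases with 1 library left out, and in the fit of all 30 libraries none of the 3 did. Among markers of other cell types, 1 of 3 for the female fat body (Yp2), 1 of 5 for the fat body (FASN1) and 1 of 5 for glia (repo) also fell against both controls. Of the 5 fat body markers, 2 rose against the UAS control. The part of these markers was not tested. Fewer muscle cells in the heads and less RNA per muscle cell cannot be told apart in such bulk samples, for these or for any other muscle member. The cytoplasmic actins Act5C and Act42A rose against the UAS control, but neither passed against the nSyb-Gal4 control (edgeR adjusted p 0.141 and 0.0556), which was itself higher than the UAS control in Act42A. Every library with neuronal overexpression had more Act5C than any control library. Among the 4 muscle actins, none changed against both controls. In heads with glial overexpression, none of the 10 genes passed in edgeR against the repo-Gal4 control (0.484% of all genes did) or the UAS control (1.13%). Intervals were wider there than in the neuron dataset. DESeq2 called 2 members in each comparison, where it called 1.35% and 2.97% of genes. Without 2 control libraries that stood apart, 3 members passed against the repo-Gal4 control (6.35% of genes) and 2 against the UAS control (17.2% of genes). In that fit 1 member, Act42A, passed against both (3.97% of genes). In both datasets, the ratio of muscle to cytoplasmic actin counts was lower on average with overexpression than in either control.

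A library held 28685786 to 84208964 counts in genes in the glia dataset, while the range was 44017794 to 60266009 in the other, so that even Act88F, the least abundant member, had at least 752 counts in every library. Levels are given as CPM, the usual library-scaled count, scaled within each dataset by the trimmed mean of M values (TMM). The bchs transcript itself averaged 1207 ± 50.3 CPM with glial overexpression, against 154.5 ± 67.3 CPM in repo-Gal4/+ heads and 166.8 ± 83.9 CPM in the UAS control of that dataset (SD, n = 5 each). It averaged 427.9 ± 97.6 CPM with neuronal overexpression, against 101.6 ± 16.6 CPM in nSyb-Gal4/+ heads and 91.3 ± 10.05 CPM in the UAS control (SD, n = 5 each). In the glia dataset, replicate 2 of the UAS control and replicate 3 of the repo-Gal4 control stood apart through low counts in long genes. Their length slopes, the change of the log2 deviation from the dataset's median per doubling of exon length, were −0.91 and −0.61. The other 13 libraries of that dataset lay between −0.23 and 0.06 and the 15 libraries of the neuron dataset between −0.07 and 0.08. Counts of members that passed and the mean actin ratios are given with and without these 2 libraries. Group means of CPM, sums of markers, actin shares, the order of levels per kilobase and correlations include them. Nothing in the labels says that libraries of 1 group came from separate crosses, so that p-values measure the spread between these libraries only.

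Per kilobase of exon, the muscle actin Act57B and the regulatory light chain Mlc2 led in all 6 groups and Act88F came last. With neuronal overexpression, Act57B averaged 1491 ± 138 CPM per kb and Mlc2 1042 ± 91.4 CPM per kb, followed by Mlc1 with 578.3 ± 63.0, up with 515.4 ± 46.8, Mhc with 387.2 ± 56.0 and Act5C with 373.1 ± 9.17 CPM per kb (SD, n = 5 each). Act87E with 164.3 ± 14.2, Act79B with 84.5 ± 5.82, Act42A with 47.6 ± 1.53 and Act88F with 13.2 ± 3.19 CPM per kb closed the order. Neighbours in this order did not overlap between libraries except for Mlc1 with up, and Mhc with Act5C. In the nSyb-Gal4 control, up and Mhc overlapped, and so did Act87E and Act79B. In the UAS control of the neuron dataset the overlaps were Mlc1 with up, and up with Mhc. In the glia dataset, Act57B and Mlc2 overlapped in all 3 groups. Among the 4 muscle actins, Act57B was the main transcript of these heads, and among the 2 cytoplasmic actins it was Act5C.

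**Figure D1:**
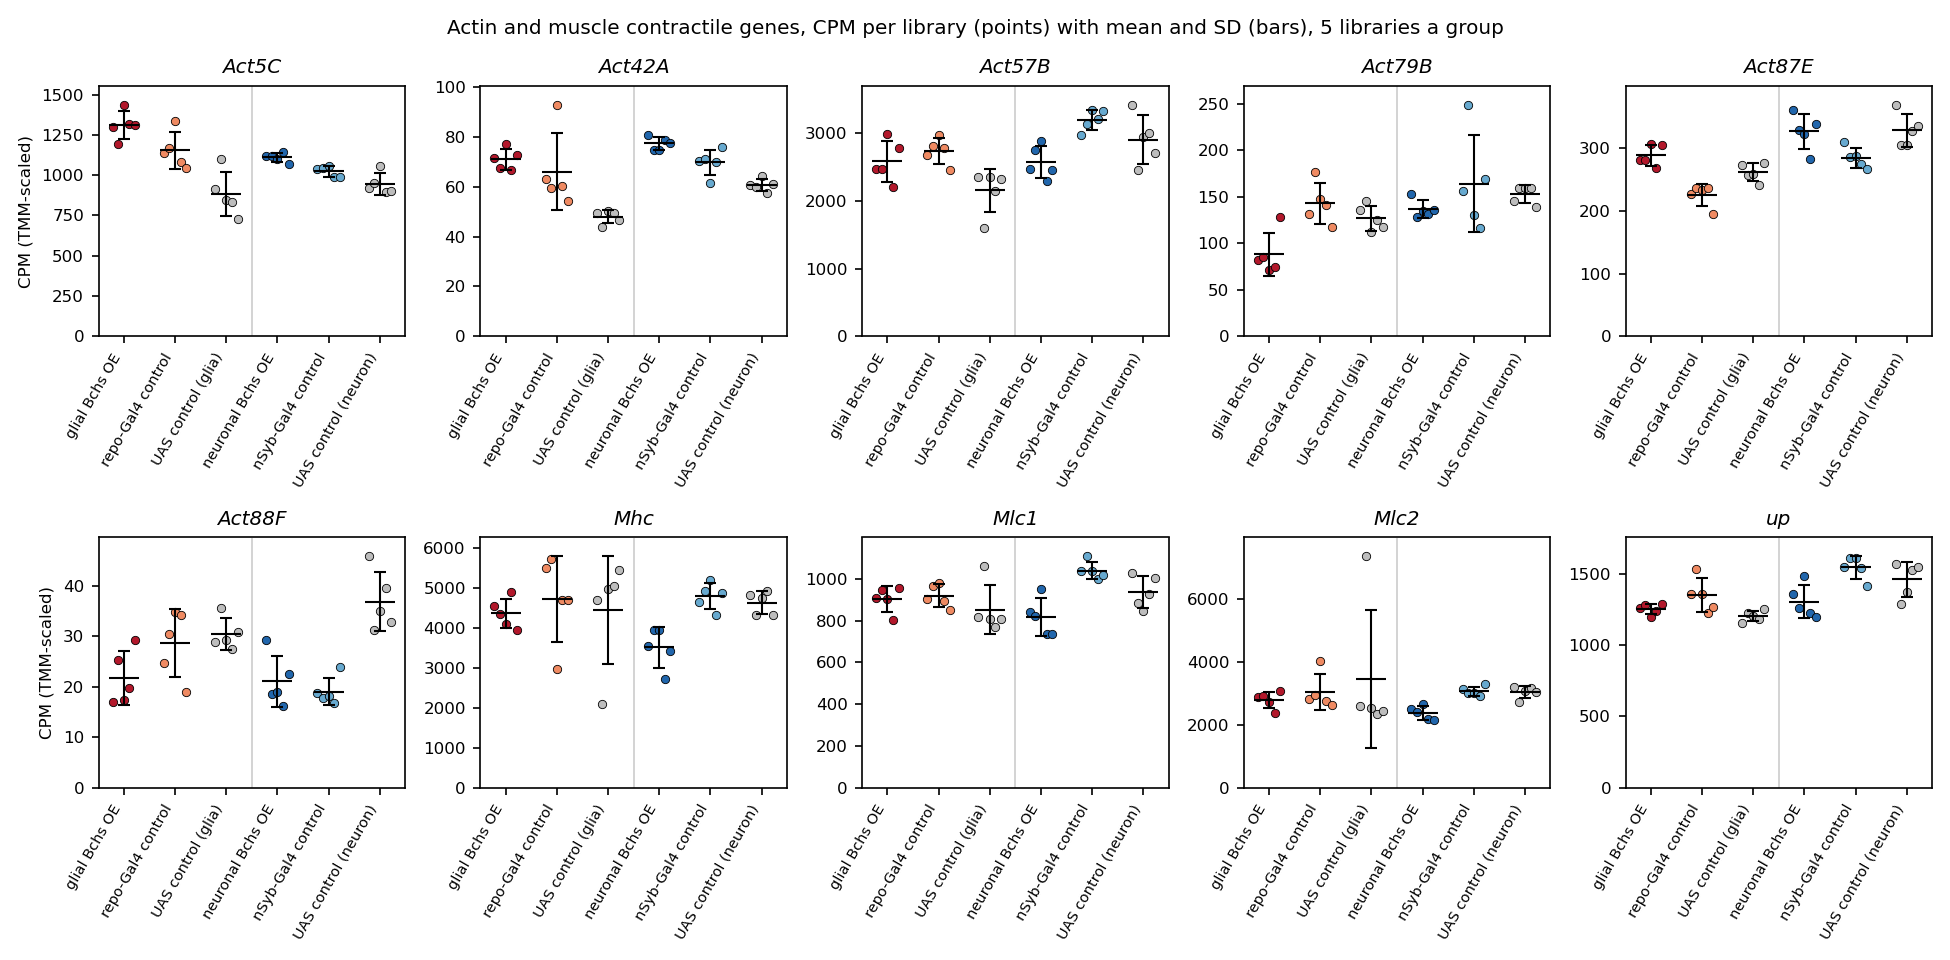
Level of each of the 10 genes in CPM (vertical axes, linear from 0) in every library (points) of the 6 groups, with the group mean and SD as bars (n = 5). In the neuron dataset, Mhc and Mlc2 of all 5 overexpression libraries lie below all 10 control libraries and Act5C lies above them, and in the glia dataset 1 UAS control library stands at 2081 CPM for Mhc and 7380 CPM for Mlc2.

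The cytoplasmic actin Act5C (FBgn0000042, build BDGP6.54, chromosome X, bases 5900861 to 5905399, plus strand, exon length 2978 bases) is the most widely used actin of fly cells. With neuronal overexpression it measured 1120.4, 1121, 1103, 1142 and 1069 CPM in the 5 libraries. It measured 1038, 1042, 1056, 991 and 988 CPM in nSyb-Gal4/+ heads and 918, 952, 1057, 893 and 904 CPM in the UAS control. All 5 libraries with neuronal overexpression lay above all 10 control libraries, and the closest values were 1069 CPM with overexpression and 1057 CPM in the UAS control. The log2 fold change was 0.12 (SE 0.05) against the nSyb-Gal4 control, with an edgeR adjusted p of 0.141, and 0.23 (SE 0.05) against the UAS control, with an edgeR adjusted p of 0.00249. The nSyb-Gal4 control itself differed from the UAS control by 0.12 on this scale (SE 0.05, edgeR adjusted p 0.109).

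Act42A (FBgn0000043, chromosome 2R, bases 6013910 to 6015689, minus strand, exon length 1626 bases) is the second cytoplasmic actin. Its libraries with neuronal overexpression measured 80.7, 75.0, 74.9, 78.8 and 77.7 CPM. Those of the nSyb-Gal4 control measured 70.2, 71.2, 61.6, 70.0 and 75.8 CPM and those of the UAS control 60.7, 59.7, 64.2, 57.4 and 61.2 CPM. The overexpression libraries lay wholly above the UAS control and overlapped the nSyb-Gal4 control through its replicate 5. Act42A differed by 0.15 (SE 0.05, edgeR adjusted p 0.0556) from nSyb-Gal4/+ heads and rose by 0.35 (SE 0.05, edgeR adjusted p 7.63e-05) over the UAS control on the log2 scale. The nSyb-Gal4 control itself was higher than the UAS control in Act42A, with a log2 fold change of 0.20 (SE 0.05, edgeR adjusted p 0.00965).

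Act57B (FBgn0000044, chromosome 2R, bases 20944021 to 20946431, plus strand, exon length 1724 bases) encodes an actin of larval and adult muscle. With neuronal overexpression it measured 2469, 2754, 2878, 2297 and 2452 CPM. It measured 2969, 3136, 3337, 3212 and 3323 CPM in nSyb-Gal4/+ heads and 3422, 2453, 2937, 3007 and 2705 CPM in the UAS control. All overexpression libraries lay below all nSyb-Gal4 control libraries, while they overlapped the UAS control, whose replicate 2 was lowest at 2453 CPM. Act57B fell against the nSyb-Gal4 control by 0.31 on the log2 scale (SE 0.08, edgeR adjusted p 0.0148). Set against the UAS control it differed by −0.18 (SE 0.08, edgeR adjusted p 0.101). Without replicate 2 of the UAS control, the change against both controls passed the test for Act57B, with a larger edgeR adjusted p of 0.0398.

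None of the other 3 muscle actins passed against the nSyb-Gal4 control. Against the nSyb-Gal4 and the UAS control, Act79B had log2 fold changes of −0.26 and −0.16, near those of Act57B (−0.31 and −0.18). Its standard errors were larger (0.15 beside 0.08). Act88F (FBgn0000047, chromosome 3R, bases 15439969 to 15442177, plus strand, exon length 1595 bases), known as the actin of the indirect flight muscles of the thorax, measured 29.2, 18.7, 18.9, 16.2 and 22.5 CPM with neuronal overexpression, against 18.7, 17.9, 18.2, 16.7 and 23.8 CPM in nSyb-Gal4/+ heads and 45.9, 31.3, 35.0, 39.6 and 32.7 CPM in the UAS control. Both groups with the nSyb-Gal4 driver lay below every library of the UAS control and overlapped each other. Act88F differed on the log2 scale by −0.81 (SE 0.15, edgeR adjusted p 0.00106) for neuronal overexpression against the UAS control, −0.95 (SE 0.15, edgeR adjusted p 0.000543) for the nSyb-Gal4 control against the UAS control, and 0.14 (SE 0.15, edgeR adjusted p 0.617) for neuronal overexpression against the nSyb-Gal4 control. Of 4 genes listed as markers of indirect flight muscle, fln (flightin) and TpnC4 stayed under 1 CPM in all 30 libraries, with highest values of 0.778 and 0.459 CPM. With Mf and salm, the other two, the list summed to 928.3 to 1133 CPM with neuronal overexpression, against 1063 to 1284 CPM in nSyb-Gal4/+ heads and 888.1 to 1077 CPM in the UAS control, and 0 of the 4 changed against both controls.

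Act87E (FBgn0000046, chromosome 3R, bases 13425983 to 13428375, plus strand, exon length 1989 bases), an actin of larval and adult body wall muscle, measured 360.0, 329, 323, 283 and 339 CPM with neuronal overexpression, against 309, 285, 287, 274 and 267 CPM in nSyb-Gal4/+ heads and 369, 306, 305, 327 and 335 CPM in the UAS control. All 3 groups overlapped. On the log2 scale Act87E differed by 0.20 (SE 0.07, edgeR adjusted p 0.0552) from nSyb-Gal4/+ heads and by −0.01 (SE 0.07, edgeR adjusted p 0.94) from the UAS control, and the nSyb-Gal4 control was below the UAS control by a log2 fold change of −0.21 (SE 0.07, edgeR adjusted p 0.0352). Act79B (FBgn0000045, chromosome 3L, bases 21985210 to 21987190, plus strand, exon length 1619 bases), an actin of tubular muscles such as those of the legs, measured 153, 128, 135, 132 and 136 CPM with neuronal overexpression. It measured 156, 249, 131, 116 and 169 CPM in the nSyb-Gal4 control, which enclosed the values of the other two groups, and 146, 159.8, 159, 159.5 and 139 CPM in the UAS control. Its log2 fold changes of −0.26 (95% interval −0.59 to 0.06) and −0.16 (−0.48 to 0.16) against the nSyb-Gal4 and the UAS control had edgeR adjusted p of 0.286 and 0.426.

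Mhc (FBgn0264695, chromosome 2L, bases 16766566 to 16788766, plus strand) is the only muscle myosin heavy chain gene of the fly and yields its isoforms by splicing, with 21 annotated transcripts over 9058 bases of exon. With neuronal overexpression it measured 3538, 3935, 3949.6, 2706 and 3407 CPM. It measured 4645, 4916, 5180.4, 4317 and 4871 CPM in nSyb-Gal4/+ heads and 4813, 4324, 4751, 4912 and 4307 CPM in the UAS control. All 5 overexpression libraries lay below all 10 control libraries, and replicate 4 was the lowest at 2706 CPM. Mhc fell by 0.45 on the log2 scale against the nSyb-Gal4 control (SE 0.09, edgeR adjusted p 0.00223) and by 0.40 against the UAS control (SE 0.09, edgeR adjusted p 0.00259).

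Mlc2 (FBgn0002773, chromosome 3R, bases 30171438 to 30174551, minus strand, exon length 2286 bases) encodes the regulatory light chain of muscle myosin. It measured 2499.5, 2407, 2653, 2185 and 2162 CPM with neuronal overexpression. It measured 3133, 3030.2, 3014, 2913 and 3299 CPM in nSyb-Gal4/+ heads and 3194, 2741, 3084, 3163 and 3044 CPM in the UAS control. As for Mhc, the overexpression libraries lay below all 10 control libraries. Mlc2 fell by 0.37 on the log2 scale against the nSyb-Gal4 control (SE 0.07, edgeR adjusted p 0.000962) and by 0.35 against the UAS control (SE 0.07, edgeR adjusted p 0.000644).

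Mlc1 (FBgn0002772, chromosome 3R, bases 27657078 to 27660177, minus strand, exon length 1414 bases) encodes the essential, also called alkali, light chain. It measured 843, 823, 951, 737 and 735 CPM with neuronal overexpression. It measured 1036, 1110.0, 1036, 998 and 1020.5 CPM in nSyb-Gal4/+ heads and 1027, 885, 847, 926 and 1004 CPM in the UAS control. The overexpression libraries lay below the nSyb-Gal4 control, and replicate 3 reached into the range of the UAS control. Mlc1 fell by 0.35 on the log2 scale against the nSyb-Gal4 control (SE 0.07, edgeR adjusted p 0.00345) and by 0.20 against the UAS control (SE 0.07, edgeR adjusted p 0.0425). This last call was close to the threshold: leaving out each library in turn, in 10 of 15 cases Mlc1 no longer passed against both controls, with larger edgeR adjusted p of 0.0108 to 0.127 over all 15.

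The troponin T gene up (FBgn0004169, chromosome X, bases 13593474 to 13602578, minus strand, 18 annotated transcripts over 2530 bases of exon) encodes the subunit that ties troponin to tropomyosin. It measured 1360.1, 1255, 1484, 1224 and 1196 CPM with neuronal overexpression. It measured 1545, 1609.7, 1608, 1541 and 1415.8 CPM in nSyb-Gal4/+ heads and 1566, 1286, 1367, 1526 and 1548 CPM in the UAS control. Replicate 3 was the highest of the overexpression libraries and reached into both controls, and replicate 1 reached into the UAS control. The gene fell by 0.24 on the log2 scale against the nSyb-Gal4 control (SE 0.07, edgeR adjusted p 0.0273), while −0.16 (SE 0.07, edgeR adjusted p 0.0834) was measured relative to the UAS control.

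Counted over the 10 members, 5 fell and 0 rose against the nSyb-Gal4 control, where 16.5% of 10778 tested genes passed the same test (8.34% lower and 8.19% higher). Against the UAS control 4 fell and 2 rose, where 38.6% of genes passed (20.2% lower and 18.3% higher). Against both controls with the same sign, 3 fell and 0 rose, where 10.2% of genes passed (5.43% lower and 4.74% higher). Libraries did not overlap for 5 members against the nSyb-Gal4 control (13.3% of genes) and for 5 against the UAS control (22.8% of genes). All 5 overexpression libraries lay on 1 side of all 10 controls for 3 members, which 6.88% of genes did. Between the controls themselves, 3 of 10 members differed, where 25.6% of genes did. In the fit of all 30 libraries, whose single estimate of the spread includes the glia dataset, 0 members passed against both controls (2.79% of genes passed against the nSyb-Gal4 control there and 5.64% against the UAS control), and Mhc had a larger edgeR adjusted p of 0.305 there and Mlc2 one of 0.839.

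**Figure D2:**
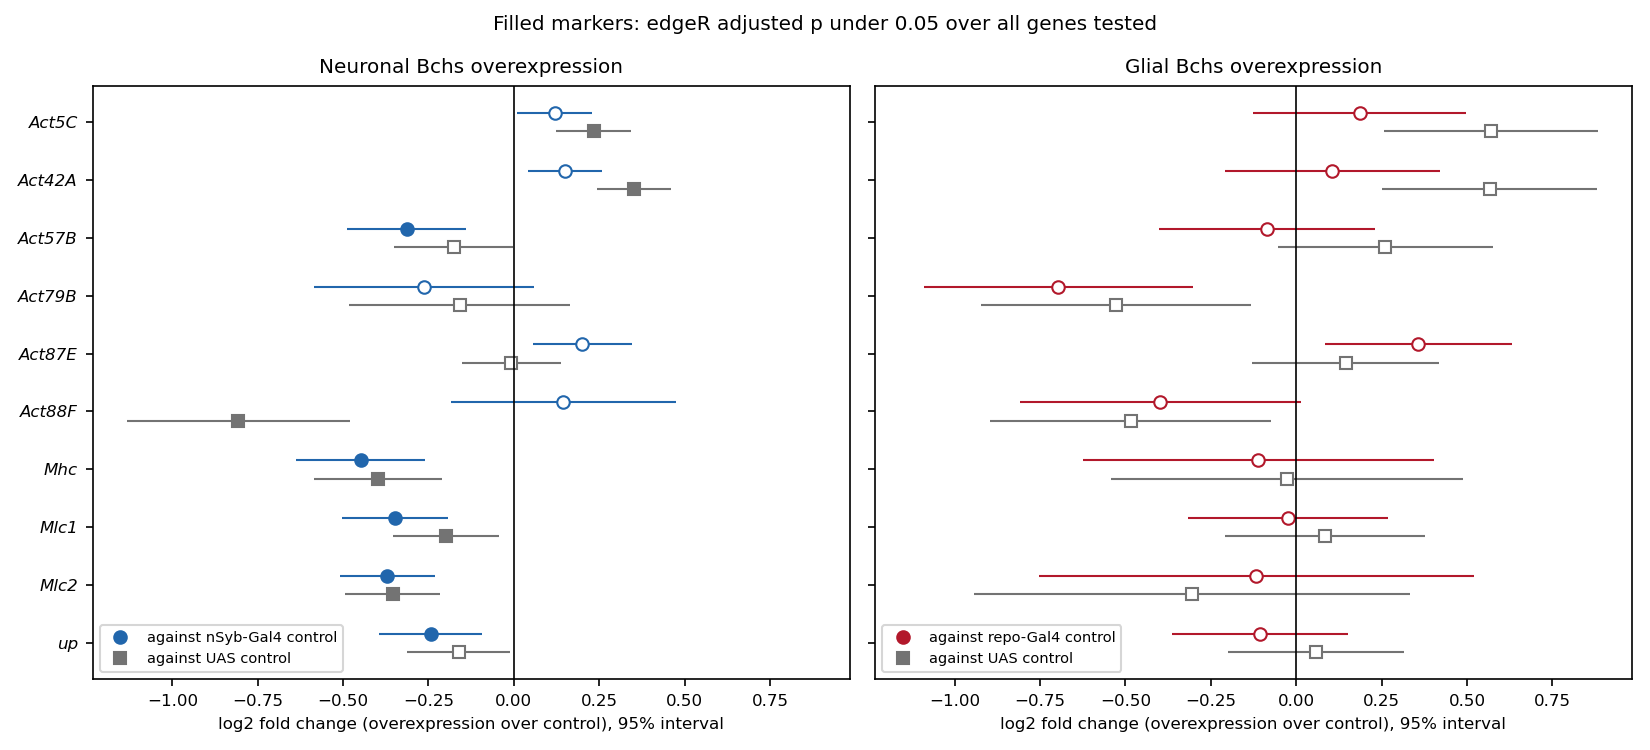
Log2 fold change of each gene (horizontal axis, overexpression over control) with its 95% interval, against the Gal4 control (circles) and the UAS control (squares), for neuronal (left) and glial (right) overexpression. Filled markers passed an edgeR adjusted p of 0.05, which Mhc, Mlc1 and Mlc2 did against both controls with neuronal overexpression and no gene did with glial overexpression.

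Beyond the members, 24 further muscle genes were examined. They were 9 thin filament regulators, 7 genes of thick and connecting filaments, 5 of the Z-disc and 3 of muscle calcium handling and fate. With neuronal overexpression, 14 of the 24 fell and 0 rose against the nSyb-Gal4 control (8.34% of all genes lower and 8.19% higher), and their median log2 fold change was −0.26, beside −0.00 over all genes tested. Against the UAS control 8 fell and 2 rose, where 38.6% of all genes passed (20.2% lower and 18.3% higher), and the median was −0.01, as over all genes tested with −0.01. Against both controls 7 fell and 0 rose (5.43% of all genes lower and 4.74% higher). The nSyb-Gal4 control was itself higher than the UAS control in 7 of these 24 genes and lower in 0, where 25.6% of all genes differed in either direction. In the fit of all 30 libraries, 0 of the 24 passed against either control, with medians of −0.25 and 0.00.

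The 7 that fell against both controls were spread over all of these lists. SERCA, the pump that returns calcium to the sarcoplasmic reticulum, had log2 fold changes of −0.39 against nSyb-Gal4/+ heads and −0.38 against the UAS control, with a larger edgeR adjusted p of 0.00169 (the larger of the 2 comparisons). The following pairs of log2 fold changes name these controls in the same sequence. The calcium-binding troponin C genes TpnC25D (−0.37 and −0.33, larger adjusted p 0.0048) and TpnC41C (−0.69 and −0.50, larger adjusted p 0.0102) fell in the same edgeR test. Paramyosin Prm, a core protein of invertebrate thick filaments, had −0.37 and −0.27 with a larger edgeR adjusted p of 0.00925, and the α-actinin Actn of the Z-disc had −0.39 and −0.26 with 0.00805. The tropomyosins Tm2 (−0.27 and −0.19) and Tm1 (−0.26 and −0.17) had larger edgeR adjusted p of 0.0295 and 0.0316. SERCA averaged 3299 ± 392 CPM with neuronal overexpression, against 4319 ± 134 CPM in nSyb-Gal4/+ heads and 4295 ± 257 CPM in the UAS control (SD, n = 5 each). Mef2, the transcription factor of muscle differentiation, had log2 fold changes of −0.02 and 0.14 against them with edgeR adjusted p of 0.914 and 0.097.

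**Figure D3:**
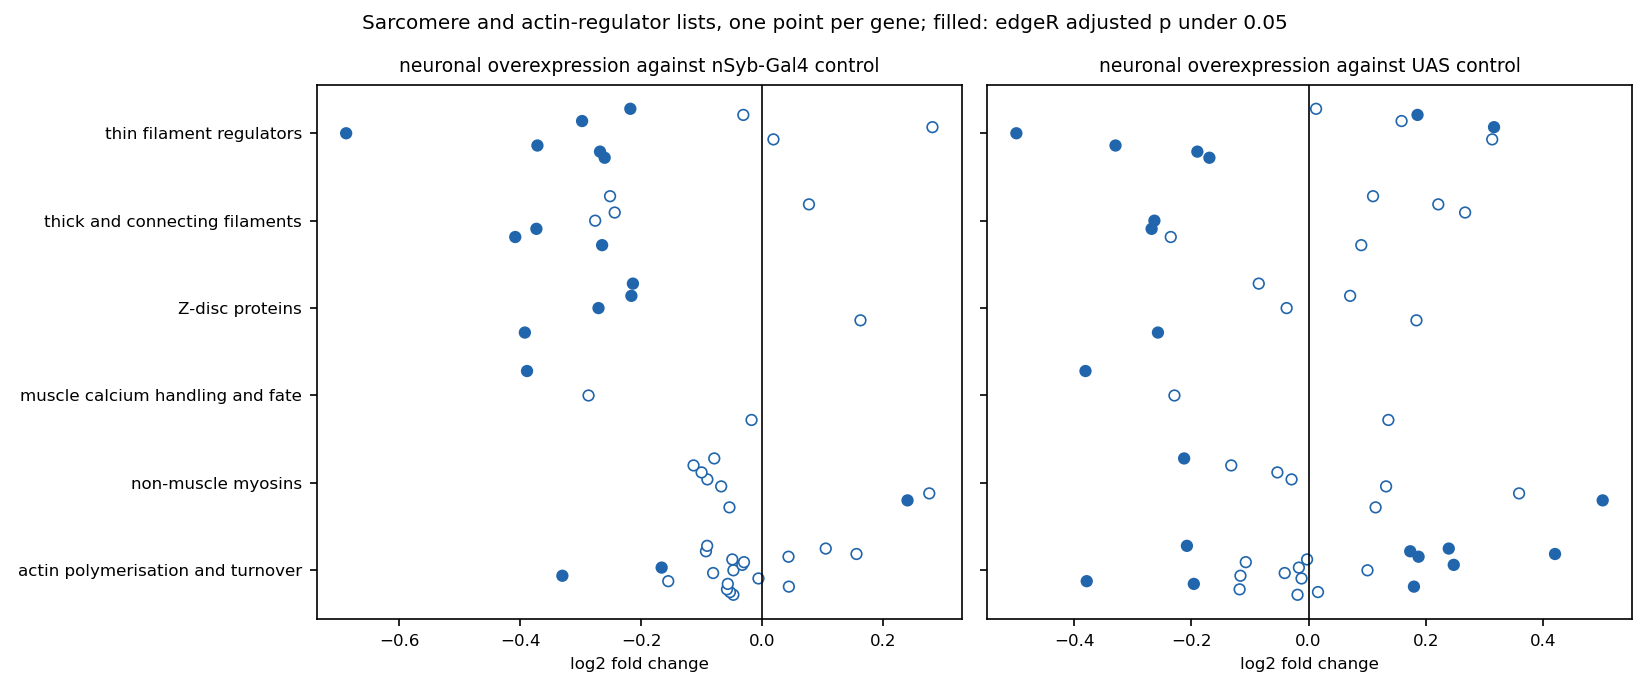
Log2 fold change (horizontal axes) of each gene of 6 lists (rows) with neuronal overexpression against the nSyb-Gal4 control (left) and the UAS control (right), with 1 point per gene and filled points for an edgeR adjusted p under 0.05. Of the 24 muscle genes in the upper 4 lists, 14 fell against nSyb-Gal4/+ heads and 8 fell against the UAS control.

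Cytoplasmic partners of actin were examined as well. Of 8 non-muscle myosin genes tested (the heavy chain zip was not analysed here), Myo31DF, a class I myosin known for its part in left-right asymmetry, rose against both controls with log2 fold changes of 0.24 and 0.50 (larger edgeR adjusted p 0.00221). It averaged 49.0 ± 2.58 CPM with neuronal overexpression, against 41.5 ± 1.64 CPM in nSyb-Gal4/+ heads and 34.6 ± 1.89 CPM in the UAS control (SD, n = 5 each). None of the other 7 passed against both controls. Over all genes tested, 4.74% rose and 5.43% fell against both. The non-muscle regulatory light chain sqh had log2 fold changes of −0.08 and −0.21 (edgeR adjusted p 0.249 and 0.00123), of which the second passed. Of 19 genes of actin polymerisation and turnover, 2 fell and 0 rose against the nSyb-Gal4 control (8.34% of all genes lower and 8.19% higher). Against the UAS control 3 fell and 6 rose (20.2% of all genes lower and 18.3% higher), and 0 passed against both (10.2% of all genes). The gelsolin gene Gel, which severs filaments, and capt, a cyclase-associated actin-binding protein, were those that fell against the nSyb-Gal4 control (−0.33 and −0.17, edgeR adjusted p 0.00429 and 0.0192). The 6 that rose against the UAS control included ena with 0.42, profilin chic with 0.25 and cofilin tsr with 0.24, with edgeR adjusted p of 0.000181, 0.0133 and 0.00459.

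Markers of other tissues were followed in the neuron dataset, and 3 single markers fell against both controls, as 5.43% of all genes did: 1 each of the yolk protein, fat body and glial lists. The summed level of 3 yolk protein genes, made by the fat body of females, was 17003 to 39867 CPM with neuronal overexpression, against 38092 to 63239 CPM in nSyb-Gal4/+ heads and 30518 to 60726 CPM in the UAS control. Of these 3, 1 fell against both controls (Yp2, −0.96 and −0.89, larger edgeR adjusted p 0.0168). The sum of 5 fat body markers was 2795 to 5473 CPM with neuronal overexpression, against 5922 to 9364 CPM in nSyb-Gal4/+ heads and 4949 to 6404 CPM in the UAS control. Of these 5, 1 fell against both (FASN1, −0.58 and −0.45, larger edgeR adjusted p 0.0454). Others of the 5 rose: against the UAS control 2 were higher and 1 was lower (18.3% of all genes higher and 20.2% lower). Against the nSyb-Gal4 control 0 were higher and 2 were lower (8.19% of all genes higher and 8.34% lower). Of that list, Lsp1alpha was under 1 CPM in every library with neuronal overexpression and of the UAS control, and Fbp1 was too in the UAS control. Glia were followed with 5 markers, whose sum was 3381 to 3747 CPM with neuronal overexpression, against 3740 to 4089 CPM in nSyb-Gal4/+ heads and 3724 to 3953 CPM in the UAS control. Of these 5, 1 fell against both (repo, −0.20 and −0.30, larger edgeR adjusted p 0.0207). Neurons were followed with 6 markers, of which 0 fell against either control and 4 rose against the UAS control (18.3% of all genes rose there). Their sum was 3255 to 3816 CPM with neuronal overexpression, against 2871 to 3809 CPM in nSyb-Gal4/+ heads and 2529 to 3648 CPM in the UAS control. For 4 photoreceptor markers the sum was 27513 to 29705 CPM with neuronal overexpression, against 29068 to 33911 CPM in nSyb-Gal4/+ heads and 30099 to 33872 CPM in the UAS control, and for 4 hemocyte markers it was 249.8 to 390.3 CPM with neuronal overexpression, against 350.5 to 421.3 CPM in nSyb-Gal4/+ heads and 307.8 to 399.6 CPM in the UAS control, with 0 of either list changed against both. The roX RNAs, which are made in males, summed to 343.7 to 511.4 CPM with neuronal overexpression, against 325.1 to 493.5 CPM in nSyb-Gal4/+ heads and 268.7 to 445.0 CPM in the UAS control. The part of these markers in the lower myosin levels was not tested.

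With glial overexpression, 0 of the 10 members passed against the repo-Gal4 control, where 0.484% of 11149 tested genes passed, and 0 passed against the UAS control, where 1.13% did. At an unadjusted p under 0.05 in edgeR, 2 members passed against the repo-Gal4 control (Act79B and Act87E) and 4 against the UAS control (Act5C, Act42A, Act79B and Act88F). The share of all genes under that unadjusted limit is not given, here or below, so such counts cannot be set against a background. DESeq2 called 2 members in each comparison, where it called 1.35% and 2.97% of genes. Against both controls 0 members passed (0.161% of genes), in edgeR as in DESeq2, and 0 had all 5 overexpression libraries on 1 side of all 10 controls (1.41% of genes). The standard errors were 0.12 to 0.30 on the log2 scale, beside 0.05 to 0.15 in the neuron dataset. Groups did not overlap for 1 member against the repo-Gal4 control (3.57% of genes) and for 2 against the UAS control (5.17% of genes).

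The cytoplasmic actins with glial overexpression stood above the UAS control. Act5C measured 1299, 1194, 1439, 1316 and 1314 CPM with glial overexpression, against 1136, 1170.1, 1337, 1081 and 1044 CPM in repo-Gal4/+ heads and 916, 1099, 848, 832 and 726 CPM in the UAS control. Act42A measured 71.5, 67.5, 77.2, 66.7 and 72.6 CPM with glial overexpression, against 63.1, 59.5, 93.0, 60.3 and 54.4 CPM in repo-Gal4/+ heads and 49.7, 43.9, 50.2, 49.6 and 46.7 CPM in the UAS control. For both genes the overexpression libraries lay above all UAS control libraries and overlapped the repo-Gal4 control, for Act42A through its replicate 3 at 93.0 CPM. Against the UAS control, the difference on the log2 scale was 0.57 (SE 0.15, edgeR adjusted p 0.0913) for Act5C and 0.57 (SE 0.15, edgeR adjusted p 0.1004) for Act42A. Against the repo-Gal4 control it was 0.19 (95% interval −0.13 to 0.50) for Act5C and 0.11 (−0.21 to 0.42) for Act42A. Between the repo-Gal4 control and the UAS control it was 0.38 for Act5C and 0.46 for Act42A, and 0 of 10 members passed in that comparison (0.888% of genes), with 3 at an unadjusted p under 0.05 in edgeR and 1 called by DESeq2.

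Act79B, the muscle actin with the lowest values relative to its controls, measured 82.4, 84.8, 71.2, 74.6 and 128 CPM with glial overexpression, against 132, 176, 148, 141 and 117 CPM in repo-Gal4/+ heads and 136, 145, 112, 124 and 118 CPM in the UAS control. Replicates 1 to 4 lay below all 10 control libraries and replicate 5 lay among them. On the log2 scale Act79B differed by −0.70 (SE 0.18, edgeR adjusted p 0.192) from repo-Gal4/+ heads and by −0.53 (SE 0.18, edgeR adjusted p 0.303) from the UAS control. Act87E measured 282, 281, 307, 268 and 306 CPM with glial overexpression, above all libraries of the repo-Gal4 control with 227, 236, 232, 236 and 195 CPM, and overlapping the UAS control with 273, 257, 259, 240.4 and 276 CPM. Its difference on the log2 scale was 0.36 (SE 0.13, edgeR adjusted p 0.581) from the repo-Gal4 control and 0.14 (SE 0.13, edgeR adjusted p 0.822) from the UAS control. Act57B averaged 2582 ± 304 CPM with glial overexpression, against 2739 ± 191 CPM in repo-Gal4/+ heads and 2155 ± 320.3 CPM in the UAS control, and Act88F averaged 21.7 ± 5.29 CPM with glial overexpression, 28.6 ± 6.76 CPM in the repo-Gal4 control and 30.4 ± 3.17 CPM in the UAS control (SD, n = 5 each).

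The myosin chains of the glia dataset had their extreme values in the 2 libraries with low length slopes. Mhc measured 4532, 4348, 4099.7, 4878 and 3952 CPM with glial overexpression, against 5493, 5709, 2965, 4689.5 and 4694 CPM in repo-Gal4/+ heads and 4695, 2081, 4956, 5051 and 5428 CPM in the UAS control. Mlc2 measured 2894, 2925, 2726, 2395 and 3077 CPM with glial overexpression, against 2814, 2946, 4047, 2755 and 2636 CPM in repo-Gal4/+ heads and 2618, 7379.7, 2526, 2337 and 2448 CPM in the UAS control. Replicate 3 of the repo-Gal4 control and replicate 2 of the UAS control were the lowest of their groups in Mhc, the longest member, and the highest in Mlc2. Within glial overexpression, replicates 5 and 3, whose length slopes were −0.23 and −0.17, also had the lowest Mhc. The part of the length slope in these levels was not tested. Mlc1 averaged 904 ± 61.1 CPM with glial overexpression, against 920.3 ± 53.5 CPM in repo-Gal4/+ heads and 853 ± 118 CPM in the UAS control (SD, n = 5 each). The troponin gene up averaged 1251 ± 35.6 CPM with glial overexpression, against 1347 ± 119 CPM in repo-Gal4/+ heads and 1203 ± 38.1 CPM in the UAS control (SD, n = 5 each). For Mhc the log2 fold change was −0.11 (95% interval −0.63 to 0.40) against repo-Gal4/+ heads and −0.03 (−0.54 to 0.49) against the UAS control, intervals that include the sizes measured with neuronal overexpression.

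**Figure D4:**
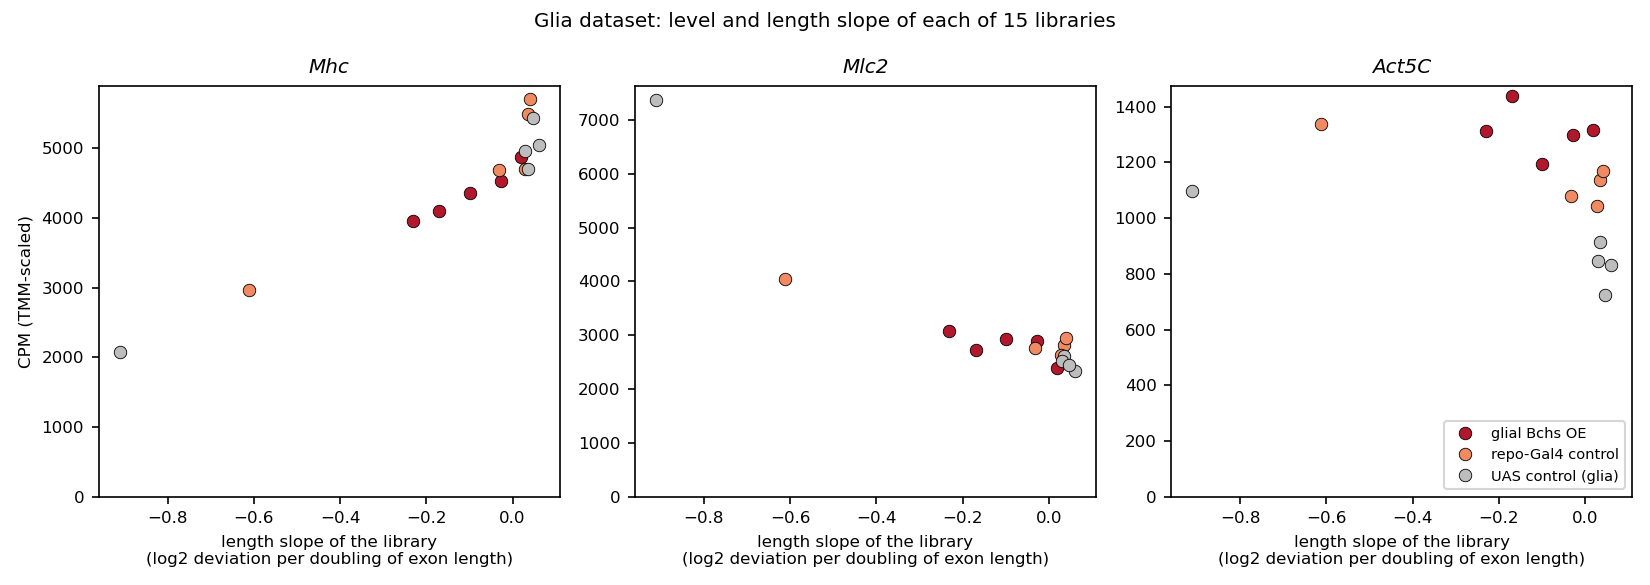
CPM of Mhc, Mlc2 and Act5C (vertical axes, linear from 0) against the length slope of the library (horizontal axis, log2 deviation per doubling of exon length) in the 15 libraries of the glia dataset. The library at −0.91 has the lowest Mhc (2081 CPM) and the highest Mlc2 (7380 CPM), and the library at −0.61 follows with 2965 and 4047 CPM.

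Without those 2 libraries, 3 members passed against the repo-Gal4 control (6.35% of genes) and 2 against the UAS control (17.2% of genes), and 1 member, Act42A, passed against both (3.97% of genes). The lowest length slopes in that fit still belonged to libraries with glial overexpression. There, Act42A had log2 fold changes of 0.26 over the repo-Gal4 control and 0.55 over the UAS control, with a larger edgeR adjusted p of 0.0113. With the controls in that sequence, Act5C had 0.25 and 0.67 (edgeR adjusted p 0.0622 and 7.45e-05), Act79B had −0.68 and −0.46 (edgeR adjusted p 0.0279 and 0.0657) and Act87E had 0.37 and 0.15 (edgeR adjusted p 0.00866 and 0.145). Mhc had −0.23 and −0.19, with edgeR adjusted p of 0.107 and 0.108. With all 15 libraries and the length slope as a covariate, Act79B and not Act42A passed against both controls, with −0.70 against the repo-Gal4 control, −0.51 against the UAS control and a larger edgeR adjusted p of 0.0184. Of the 24 further muscle genes, 0 passed against either control with all 15 libraries and no covariate, in edgeR or in DESeq2. In edgeR, 1 and 0 of them had an unadjusted p under 0.05 against the repo-Gal4 and the UAS control. Without the 2 libraries, 1 of the 24 fell against the repo-Gal4 control, and 1 rose and 1 fell against the UAS control. With the covariate, 1 fell against the repo-Gal4 control, and 5 rose and 1 fell against the UAS control, where 6.58% and 25.1% of all genes passed. The sum of the 6 neuronal markers was 1201 to 4887 CPM with glial overexpression (median 2018 CPM). It was 425.2 to 5488 CPM in repo-Gal4/+ heads (median 4997 CPM) and 353.6 to 5290 CPM in the UAS control (median 5067 CPM). The lowest value of each control was in its library with a low slope. With all 15 libraries, these markers had median log2 fold changes of −0.88 (repo-Gal4 control) and −1.02 (UAS control). Medians over all genes tested were −0.02 and −0.09. In edgeR, 0 of the 6 passed in either comparison. The part of these markers in the member values was not tested.

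Whether glial and neuronal overexpression differed in their effect was tested in the fit of all 30 libraries, each effect being overexpression minus the mean of its 2 controls. In that test, 0 of 10 members passed (1.1% of 11137 genes), with 2 at an unadjusted p under 0.05 in edgeR and 0 by DESeq2. The glial minus neuronal difference was 0.34 (95% interval −0.11 to 0.79) for Mhc, 0.28 (0.03 to 0.54) for Mlc1, 0.13 (−0.43 to 0.69) for Mlc2 and 0.32 (0.04 to 0.59) for Act57B on the log2 scale. Without the 2 libraries with low length slopes, 4 members passed (34.2% of genes): Mlc2 with 0.45, Mlc1 with 0.36, Act57B with 0.30 and Act5C with 0.27. RNA of the 2 datasets was extracted by different protocols, per the labels, so that driver and extraction cannot be told apart in this difference. Between the UAS controls of the 2 datasets, which share their genotype, 0 of 10 members passed (3.05% of genes), with 4 at an unadjusted p under 0.05 in edgeR and 0 by DESeq2, and 6 passed without the 2 libraries (51.4% of genes).

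The balance of actin forms was described by the ratio of the summed counts of the 4 muscle actins to those of the 2 cytoplasmic actins. With neuronal overexpression the ratio was 2.51, 2.70, 2.85, 2.24 and 2.57 in the 5 libraries. It was 3.12, 3.31, 3.38, 3.41 and 3.56 in nSyb-Gal4/+ heads and 4.07, 2.92, 3.07, 3.72 and 3.33 in the UAS control. Every overexpression library lay below every control library, with means of 2.57 ± 0.229 with neuronal overexpression, against 3.35 ± 0.161 in nSyb-Gal4/+ heads and 3.42 ± 0.475 in the UAS control (SD, n = 5 each). With glial overexpression the ratio was 2.08, 2.27, 2.23, 1.86 and 2.34. It was 2.56, 2.64, 2.37, 2.80 and 2.54 in repo-Gal4/+ heads and 2.89, 1.79, 3.06, 2.88 and 3.56 in the UAS control. All libraries with glial overexpression lay below the repo-Gal4 control and, apart from replicate 2 of the UAS control at 1.79, below the UAS control as well. The means were 2.16 ± 0.192 with glial overexpression, against 2.58 ± 0.157 in repo-Gal4/+ heads and 2.84 ± 0.648 in the UAS control (SD, n = 5 each). With those 2 low-slope libraries left out, the control means were 2.63 in repo-Gal4/+ heads and 3.10 in the UAS control (n = 4 each). The ratio combines genes already described and carries no test.

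**Figure D5:**
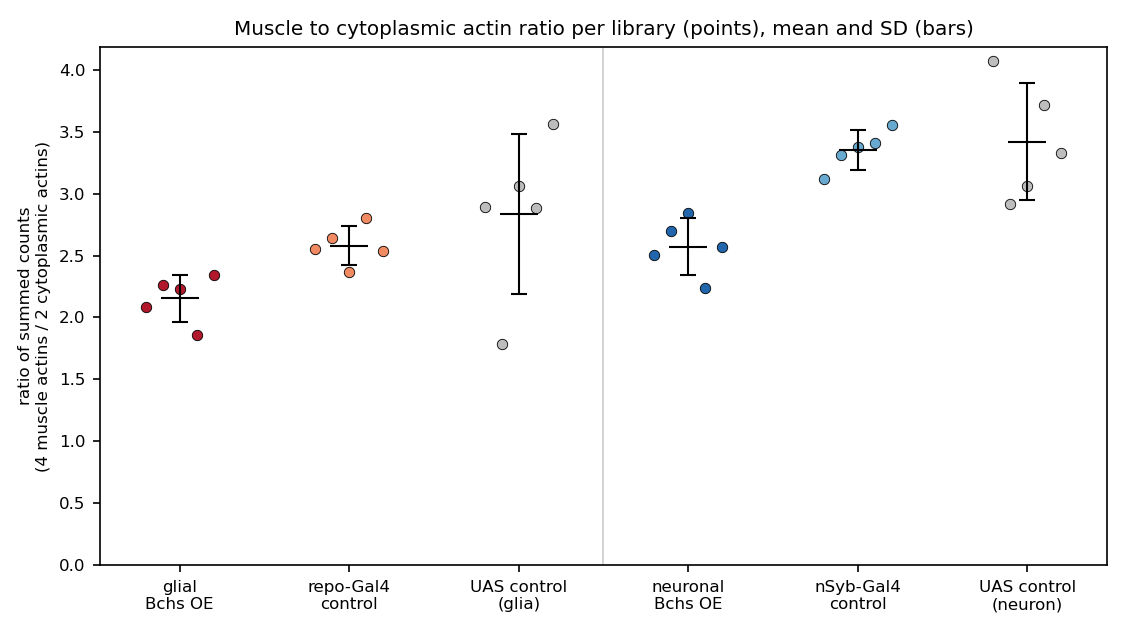
Ratio of the summed counts of 4 muscle actins to those of 2 cytoplasmic actins (vertical axis, from 0) in each library (points) of the 6 groups, with mean and SD as bars (n = 5). Libraries with neuronal overexpression lie between 2.24 and 2.85 and all 10 of their controls at 2.92 or above, and those with glial overexpression lie between 1.86 and 2.34.

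Behind this ratio, Act5C made up 26.3 ± 1.72% of all actin counts with neuronal overexpression, against 21.5 ± 0.864% in nSyb-Gal4/+ heads and 21.5 ± 2.28% in the UAS control, while Act57B made up 60.5 ± 2.31% with neuronal overexpression, against 67.2 ± 1.80% in nSyb-Gal4/+ heads and 65.4 ± 2.69% in the UAS control (SD, n = 5 each). With glial overexpression, Act5C made up 30.2 ± 1.97%, against 26.5 ± 1.04% in repo-Gal4/+ heads and 25.4 ± 5.31% in the UAS control (SD, n = 5 each). The share of Act79B was 2.02 ± 0.471% with glial overexpression, against 3.27 ± 0.380% in repo-Gal4/+ heads and 3.65 ± 0.562% in the UAS control (SD, n = 5 each).

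Among 10668 genes tested in both datasets and outside the 10 members, those whose log2 CPM followed Mhc most closely over the 15 libraries of each dataset were SERCA, chp, gek, Actn and CG31663. The smaller of the 2 Pearson correlations was 0.966 for SERCA, 0.944 for chp, which encodes the photoreceptor protein chaoptin, and 0.925 for CG31663. In the glia dataset these libraries also share the wide range of length slopes. Those nearest to Act5C were w, CG1572, CG31205, sturkopf and CG4269, with smaller correlations of 0.846 to 0.801. The first of them, w (white), encodes an eye pigment transporter.

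The actins are close paralogs, and how reads that matched several of them were divided decides how well their levels are separated. Reads aligned to more than 1 place were counted apart from genes, as 1.67 to 2.42% of a library of the glia dataset and up to 6.13% of one of the neuron dataset, so the level of each actin is uncertain by the share of its reads lost in this way, which was not measured here. In the annotation used here, exons of Act57B shared 96 bases (5.57%) with a small nucleolar RNA gene on the same strand, and those of Act87E shared 60 bases (3.02%) with an antisense noncoding RNA. Whether reads were counted by strand is not given in the sources used here. The 4 muscle myosin and troponin members shared no exon base with another gene.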

How the data were processed

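The authors deposited whole-number read counts per gene for each of 30 libraries, not normalized, with STAR, HTSeq and the build BDGP6 named in the submitters' processing notes. Per the labels' protocols, RNA was extracted with a column kit, in the glia dataset after homogenisation in Trizol, and made into TruSeq v2 libraries. Neither the release of the annotation nor the strand setting is given in the sources used here. The special counters of the counting program and features that are not genes were left out of library sizes and tests. Exon lengths and coordinates came from the Ensembl annotation of BDGP6.54, matched by gene identifier.

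From the counts, CPM were computed with TMM scaling within each dataset and divided by the union of exon lengths for CPM per kb. Tests ran in R 4.3.3 with edgeR 4.0.16 (filterByExpr, TMM, robust quasi-likelihood F test, Benjamini-Hochberg adjustment over all genes tested, threshold 0.05) on the 15 libraries of a dataset in 3 groups, with no covariate, and on all 30 libraries for differences between datasets. A change against both controls needed the threshold against each with the same sign. Standard errors are those implied by the F statistic, and 95% intervals cover the spread between libraries. The fits were tested on simulated data. Alternatives were DESeq2 1.42.0, RLE scaling, no filter, a replicate block, a fit of all 30 libraries, each library left out, the 2 libraries with low length slopes left out, and the slope as a covariate. Plots used matplotlib 3.10.9 under Python 3.11.15.

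The 10 members, the gene lists, the markers and the alternatives were chosen with earlier results of these data known, so that no list here is independent evidence. Named in the text were all members, up to 4 genes per list that changed against both controls of a dataset, the 5 genes nearest to Mhc and to Act5C, and the markers. Fln, TpnC4, Mef2, sqh, Gel, capt, ena, chic and tsr were named after their values were seen.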

Additional observations from a re-analysis of the deposited data

Results flagged for a closer look

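In each group of 5 libraries, the gap between an extreme library and its nearest neighbour was compared with the whole range of the group. Of 66 groups of values tested in this way, 9 had a library farther from the others than Dixon's 95% critical value of 0.71 allows, and chance alone gives about 1 in 20. Replicate 2 of the UAS control in the glia dataset accounted for 4 of the 9. It was lowest in Mhc with 2081 CPM (the others 4695 to 5428 CPM) and in Act57B with 1603 CPM (2147 to 2356 CPM). It was highest in Mlc1 with 1061 CPM (771.1 to 818.1 CPM) and in Mlc2 with 7380 CPM (2337 to 2618 CPM). Replicate 3 of the repo-Gal4 control was highest in Mlc2 with 4047 CPM (2636 to 2946 CPM) and in Act42A with 93.01 CPM (54.39 to 63.07 CPM). These 2 libraries had length slopes of −0.91 and −0.61, and the part of the slope in these values was not tested. Replicate 5 of the repo-Gal4 control was lowest in Act87E with 195.3 CPM (227.4 to 235.6 CPM). Replicate 5 of glial overexpression was highest in Act79B with 127.8 CPM (71.17 to 84.76 CPM). Replicate 5 of the nSyb-Gal4 control was highest in Act88F with 23.82 CPM (16.69 to 18.67 CPM).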

How the results depend on the processing

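Mhc and Mlc2 passed against both controls of neuronal overexpression in all 15 fits that left out 1 library and in 4 of the 5 other fits, the exception being the fit of all 30 libraries. Mlc1 passed in 5 of the 15 and in 2 of the 5. The number of members changed against both controls of neuronal overexpression was 0 in the fit of all 30 libraries and 2 to 5 with 1 library left out, with 5 without replicate 2 of the UAS control of the neuron dataset. The share of all genes changed against both controls is not given for these fits, nor below for the slope covariate and the replicate block. In the fit of all 30 libraries, 0 members passed against the nSyb-Gal4 control and 2 for neuronal overexpression against the UAS control. Of all genes, 2.79% and 5.64% passed there. For the nSyb-Gal4 control against the UAS control, 1 member passed in that fit, as did 367 of 11137 genes. With 1 library left out, these counts of members were 4 to 6, 5 to 8 and 2 to 4. There 1367 to 1883, 3274 to 4856 and 1866 to 3743 of 10815 to 10877 genes passed. For glial overexpression against the repo-Gal4 control, DESeq2 gave 2, the fit of all 30 libraries 2, the fit without the 2 libraries with low length slopes 3 and the slope covariate 2. Of all genes, 1.35% passed with DESeq2, 191 of 11137 with all 30 libraries, 6.35% without the 2 libraries and 6.58% with the covariate. For glial overexpression against the UAS control the same 4 fits gave 2, 2, 2 and 4 members, where 2.97%, 541 of 11137, 17.2% and 25.1% of genes passed. For the repo-Gal4 control against the UAS control they gave 1, 2, 2 and 3 members. There 235 of 11789, 305 of 11137, 484 of 11129 and 993 of 11149 genes passed. Leaving out 1 library gave 0 to 1, 0 to 2 and 0 to 1 members in these 3 comparisons, where 33 to 201, 76 to 356 and 64 to 291 of 11191 to 11243 genes passed. The count of members against both controls of glial overexpression was 1 without the 2 libraries (3.97% of genes) and 1 with the covariate. It was 0 in all 15 fits with 1 library left out. The glial minus neuronal difference gave 4 members without the 2 libraries (34.2% of genes) and 3 with the covariate (1712 of 11137 genes). Between the UAS controls of the datasets these settings gave 6 members (51.4% of genes) and 4 members (4675 of 11137 genes). With 1 library left out, the 2 comparisons gave 0 to 1 and 0 to 3 members, where 88 to 464 and 227 to 2834 of 11211 to 11248 genes passed. The cause of these changes was not tested. Directions that reversed belonged to differences that did not pass the test with all libraries: Act87E for neuronal overexpression against the UAS control was 0.0038, 0.0047 and 0.0075 with DESeq2, RLE scaling and all 30 libraries, and −0.033 to 0.05 with 1 library left out. Without the 2 libraries, glial overexpression gave Mlc2 0.19 against the UAS and 0.012 against the repo-Gal4 control and Mlc1 0.0036 against the repo-Gal4 control. With 1 library left out, Mhc against the UAS control was −0.20 to 0.045, Mlc2 −0.43 to 0.18 against the UAS and −0.17 to 0.0082 against the repo-Gal4 control, and Mlc1 −0.063 to 0.00047 against the repo-Gal4 control. Mlc2 between the UAS controls of the datasets was −0.18 without the 2 libraries (where it passed, edgeR adjusted p 0.0375), −0.077 with the covariate and −0.22 to 0.43 with 1 library left out. With actin counts divided by exon length, the muscle to cytoplasmic ratio averaged 3.53 with glial overexpression, 4.24 in repo-Gal4/+ heads and 4.64 in their UAS control, and 4.17 with neuronal overexpression, 5.46 in nSyb-Gal4/+ heads and 5.57 in their UAS control. Replicate numbers were not used to pair libraries in the main fits. Of 15 same-numbered pairs, deviations correlated above 0.1 in 8 for the glia dataset and in 1 for the neuron dataset. The median correlation of same-numbered pairs was 0.259 in the glia dataset, beside 0.066 for other pairs. In the neuron dataset it was 0.020 beside −0.005. In the glia and the neuron dataset, 6 and 2 of 15 libraries correlated best with their own number. Whether the numbers mark pairs in the glia dataset was not settled. With the replicate as a block, 2 members changed against both controls of neuronal overexpression (5 against the nSyb-Gal4 and 5 against the UAS control), 3 differed between the controls of that dataset, and 0 passed in any comparison of the glia dataset or between datasets. Of 10778 genes in the neuron dataset, 1501 passed there against the nSyb-Gal4 control, 3729 against the UAS control and 2238 between the controls. The lowest count of a member in a library was 752, and the shares of counting error and of library spread in the intervals were not separated.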
